A study of Mus musculus with 3 samples.

Results

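The mitochondrial genome of the mouse carries 37 genes, and all of them have a row in the count tables of 3 single-well RNA libraries of adult mouse heart cells. They were taken by one rule, a position on chromosome M of the annotation, which gave 37 of 55401 mouse gene identifiers: 13 protein-coding genes, 2 ribosomal RNA genes and 22 transfer RNA genes. Cells were dispensed into nanowells on the iCell8 platform and imaged, and wells with a single live cell were sequenced, with 1 library for each day after tamoxifen (spelled tarmoxifen in the labels). The genotype labels are D1_INO80_OE for day 1, D2_INO80_OE for day 2, and both D3_INO80_OE and D3_Ctrl for day 3. Nothing used here assigns day 3 wells to either label, so day 3 is a mixture. The series title names Myh6-MCM, an inducible Cre recombinase driven by the promoter of a cardiomyocyte myosin gene, together with floxed Ino80, whereas the design text speaks of induction of Ino80, the ATPase of the INO80 chromatin remodelling complex. All 3 libraries are labelled as treated, the sources used here do not give the age of the mice or the number pooled per library, and day 0 was not analysed here. The labels name polyA RNA as the molecule, so ribosomal and transfer RNA rows count what such a library captured, and the captured part of each RNA was not measured.

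Mitochondria keep a small circular genome that is transcribed from both strands into long precursors, which are then cut into ribosomal, messenger and transfer RNAs. The messenger RNAs encode core subunits of the respiratory chain and of ATP synthase, and the ribosomal RNAs form the mitochondrial ribosome that translates them. Heart muscle is dense in mitochondria, and these transcripts make up a large part of the RNA of a cardiomyocyte. Every enzyme that transcribes, cuts and degrades these RNAs is encoded in the nucleus.

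The libraries held 1232, 1063 and 1099 wells with 487461107, 452070922 and 484369736 counts on days 1, 2 and 3, and 1225, 1059 and 1092 wells had at least 1000 counts and 300 genes. The median count of these wells was 320035, 350564 and 361714. Each day is 1 library without a replicate. Differences below therefore compare libraries, not conditions, and carry no test. Values are CPM, the counts per 1000000 counts over all mouse genes unless stated otherwise, and 95% intervals cover counting error only. Comparisons use the cardiomyocyte compartment of 522, 523 and 581 wells. These are the wells left after clusters named by raised markers for endothelial cells, fibroblasts, macrophages or red cells were taken out. Clusters were formed without the mitochondrial genes. The compartment's clusters carry no cell type name of their own, apart from 20 atrial-like wells on day 1 and 33 on day 3. An unnamed cluster of 104 wells on day 2 had 3 red cell markers raised, and an atrial-like cluster of 20 wells on day 3 had 4. These clusters stayed in the compartment. All 12 ventricular cardiomyocyte markers had counts there, at 117950, 122489 and 125678 CPM of nuclear-encoded counts in sum. Other marker sums in the compartment were not level across days 1, 2 and 3: atrial 7157, 218 and 1991 CPM, erythroid 37.6, 357 and 385.8, B lymphocyte 2.01, 491 and 3.88, neutrophil 21.2, 183 and 62.2, T and NK lymphocyte 91.1, 27.4 and 2.93, and fibroblast 493, 341 and 230. Their part in the differences between libraries was not tested. The other classes were not free of ventricular cardiomyocyte markers. The sum of these 12 markers was 108879, 114021 and 102917 CPM in endothelial-like wells. It was between 95413 and 101856 CPM in fibroblast-like and macrophage-like wells. Cardiomyocyte RNA is thus nearly as abundant in wells named for other cell types, and its source was not tested. The libraries share well barcodes, 278 between days 1 and 2, 268 between days 1 and 3, 247 between days 2 and 3, and 67 in all 3.

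The rows are not equally usable. Most rows near 0 lie in a part of the mitochondrial genome that has a copy on chromosome 1, and whether the copy sets their level was not tested. GENCODE annotates 7 pseudogenes on mm10 chromosome 1 between positions 24611535 and 24616197, all on the minus strand, that run in the same order as chromosome M from position 6390 to position 11042. Gm28661 is identical to the first 681 bases of mt-Co2, Gm10925 to the first 678 bases of mt-Atp6 and Gm28437 to the first 783 bases of mt-Co3. Gm10222 is identical to the first 294 bases of mt-Nd4l, and Gm28439 to the first 876 bases of mt-Nd4, while Gm29216 matches the last 483 bases of mt-Co1 with 1 mismatch. The first 60 bases of mt-Co2 (chrM:7013-7072, plus strand) and of its copy (chr1:24615506-24615565, minus strand) are shown because no base tells them apart.
mt-Co2: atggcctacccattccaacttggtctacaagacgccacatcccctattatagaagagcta
Gm28661: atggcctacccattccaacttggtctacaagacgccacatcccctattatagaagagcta

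The pair of mt-Nd3 and Gm28438 differs at 1 of 345 compared bases. The substitution is T3C, counted from 1 at the 5′ end of mt-Nd3, and it lies at position 9461 of chromosome M. The first 33 bases of each (chrM:9459-9491, plus strand, and chr1:24613087-24613119, minus strand) are printed with the differing base in capitals.
mt-Nd3: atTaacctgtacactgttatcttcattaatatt
Gm28438: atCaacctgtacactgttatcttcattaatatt

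mt-Nd4 leaves the copied stretch partway. Bases 847 to 906 of the gene (chrM:11013-11072, plus strand) are shown across that edge, with the bases beyond the annotated copy in capitals.
mt-Nd4: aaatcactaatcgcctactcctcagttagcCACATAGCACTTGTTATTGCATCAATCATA

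Of the 11 members that lie wholly inside the stretch, 10 were under 1 CPM in every library. mt-Co2, a core subunit of cytochrome c oxidase, had 2, 2 and 6 counts over the compartment wells of days 1, 2 and 3. mt-Co3, another core subunit of that enzyme, had 10, 23 and 3 counts, and mt-Atp6, the proton channel subunit of ATP synthase, had 28, 3 and 65. mt-Atp8 had 0, 1 and 0 counts, mt-Nd4l had none, and the transfer RNA rows mt-Ts1, mt-Td, mt-Tk and mt-Tg had none either. The exception was mt-Nd3, a subunit of complex I, at 36.5, 52.6 and 15.6 CPM, and it is the member whose copy differs within its first bases. The copies themselves were listed at 0.0263 to 4.99 CPM, so the counts of these genes are not found there. The sources used here do not say how reads that fit several places were counted, so the low rows are no measure of these transcripts, and a count of 0 over the compartment allows up to 3 counts, or 0.0134, 0.0129 and 0.0113 CPM. Another 4 members outside the stretch were also under 1 CPM: mt-Tw, mt-Ty and mt-Th had no count, and mt-Tn had 8, 12 and 7. No sequence of the nuclear genome was at hand beyond annotated transcripts, so a copy of these transfer RNA genes was not looked for.

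**Figure D1:**
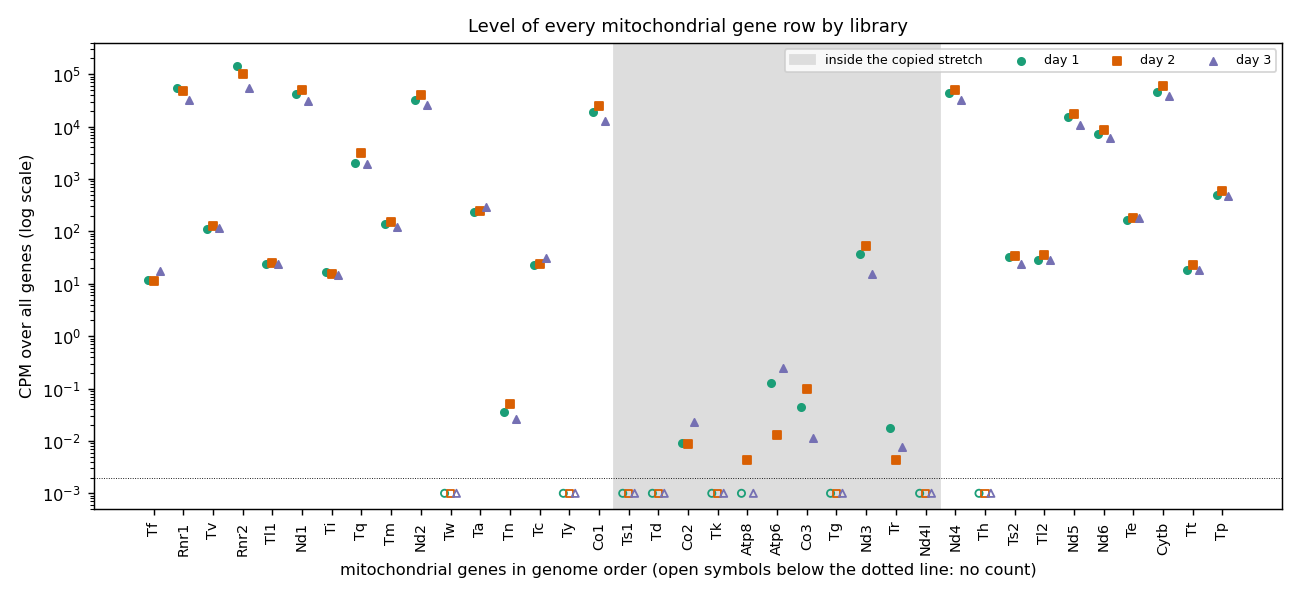
CPM over all genes (log scale) of all 37 mitochondrial gene rows in genome order, with circles for day 1, squares for day 2 and triangles for day 3, each the sum over the compartment wells of 1 library. Rows inside the shaded stretch copied on chromosome 1 sit under 1 CPM except mt-Nd3, and open symbols below the dotted line have no count.

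After these rows are set aside, 9 members at 5000 CPM or more carry the mitochondrial total, with 99.2, 98.9 and 98.7% of it on days 1, 2 and 3. They are both ribosomal RNAs and 7 messenger RNAs: mt-Nd1, mt-Nd2, mt-Nd4, mt-Nd5 and mt-Nd6, which encode complex I subunits, mt-Cytb, the cytochrome b of complex III, and mt-Co1, the catalytic subunit of complex IV. Another 13 transfer RNA rows were above 10 CPM in every library. No ATP synthase gene is among the measured members.

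Per 1000 bases of gene, the large ribosomal RNA mt-Rnr2 was the highest row on day 1, at 90184 CPM, followed by the small ribosomal RNA mt-Rnr1 at 57537, mt-Nd1 at 44463 and mt-Cytb at 40188 CPM per 1000 bases. mt-Nd4 and mt-Nd2 stood near each other at 31464 and 31311, and mt-Nd6, mt-Co1 and mt-Nd5 were lowest at 14031, 12561 and 8507. The order of the top rows closed up by day 3, when mt-Rnr2 stood at 35052, mt-Cytb at 33285, mt-Rnr1 at 33242 and mt-Nd1 at 32621 CPM per 1000 bases. mt-Nd5 remained lowest of the 9 on day 3, at 5887. The length of mt-Co1 and mt-Nd4 includes copied sequence: stretches of 50 bases or more identical to an annotated nuclear transcript covered 74.9% and 63.6% of them, against 24.3% of mt-Nd5, 17.2% of mt-Nd2 and 0% of the other 5 abundant members. Their level per length is therefore not comparable with that of the others.

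The mitochondrial share of all counts was 40.8% on day 1, 40.5% on day 2 and 24.7% on day 3. The near-equal totals of days 1 and 2 hold different mixtures. Ribosomal RNA made up 48.5% of the mitochondrial counts on day 1, 36.9% on day 2 and 35.3% on day 3, and the messenger RNAs made up 50.7%, 62.0% and 63.4%. In CPM, ribosomal RNA went from 197618 on day 1 to 149462 on day 2 and 87198 on day 3, so each library was below the one before. The messenger RNAs stood at 206626, 251126 and 156685 CPM, highest on day 2. Transfer RNA rows took 0.812, 1.13 and 1.32% of the mitochondrial total.

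Between days 1 and 2 the total differed by −0.0085 on the log2 scale, while ribosomal RNA stood at 0.756 times (log2 −0.40) and messenger RNA at 1.22 times (log2 0.28) the day 1 level. All 7 abundant messenger RNAs were higher on day 2, from 0.15 for mt-Nd5 to 0.37 for mt-Cytb, and both ribosomal RNAs were lower, mt-Rnr1 at −0.23 and mt-Rnr2 at −0.48. Of the 23 members with a mean of at least 10 CPM, 19 were higher on day 2 and none was 2-fold apart in either direction. Among all 4909 genes at that level, 4.22% passed 2-fold upward and 1.45% downward on day 2, and the median gene was at 0.16, against 0.17 for the median member. The counting intervals of the 9 abundant members were at most 0.0095 wide on the log2 scale in the comparisons between libraries and by Ino80, so counting error is small beside these differences.

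The total of day 3 stood at 0.606 times that of day 1 (log2 −0.72), with ribosomal RNA at 0.441 times (log2 −1.18) and messenger RNA at 0.758 times (log2 −0.40). Of 23 measured members 5 were higher, all of them transfer RNA rows, and 2 were at least 2-fold lower on day 3, mt-Rnr2 and mt-Nd3. Among the higher rows, the well medians of mt-Tf, mt-Ta and mt-Tc were also higher on day 3. Those of mt-Te and mt-Tv went the other way, from 90.9 to 73.8 and from 97.1 to 89.4 CPM. mt-Rnr2 was at 142671 and 55452 CPM on days 1 and 3 (log2 −1.36, 95% interval −1.364 to −1.3625), with quartiles over wells of 121933 to 163526 on day 1 and 41909 to 65526 on day 3. The quartile ranges of mt-Rnr2 do not overlap between these libraries. mt-Nd3, 98.3% of which is covered by stretches identical to its nuclear copy, was at 36.5 and 15.6 CPM (log2 −1.23, −1.28 to −1.17), with well medians of 33.1 and 13.2 CPM. Per nuclear-encoded count 3 members were 2-fold apart, and at a minimum of 50 CPM 1 was. Over all 4943 genes at 10 CPM or more, 9.67% passed 2-fold upward and 1.72% downward, with a median gene at 0.27. The 7 abundant messenger RNAs lay between −0.60 for mt-Co1 and −0.27 for mt-Cytb.

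CPM over all genes are shares, so a lower mitochondrial share raises every nuclear gene in them. Per nuclear-encoded count the total was at −1.07 on day 3 against day 1, with ribosomal RNA at −1.53 and messenger RNA at −0.74. On that scale the median gene lay at −0.12 (genes at 5 or more), against 0.27 with CPM over all genes.

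Day 3 against day 2 gave a total at log2 −0.71, ribosomal RNA at −0.78 and messenger RNA at −0.68, so here both kinds were lower by similar amounts. mt-Nd3 was the 1 member of 23 at least 2-fold lower, at 15.6 against 52.6 CPM (log2 −1.75, −1.80 to −1.70), and none was 2-fold higher. This count depends on the scale and the minimum: 7 members were 2-fold apart per nuclear-encoded count, and 0 at a minimum of 50 CPM. Across all 5097 genes measured, 6.38% passed 2-fold upward and 2.45% downward. The 3 members that were higher on day 3 were the transfer RNA rows mt-Tf at 0.65, mt-Tc at 0.36 and mt-Ta at 0.28. The 3 comparisons share libraries and are not independent of each other.

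**Figure D2:**
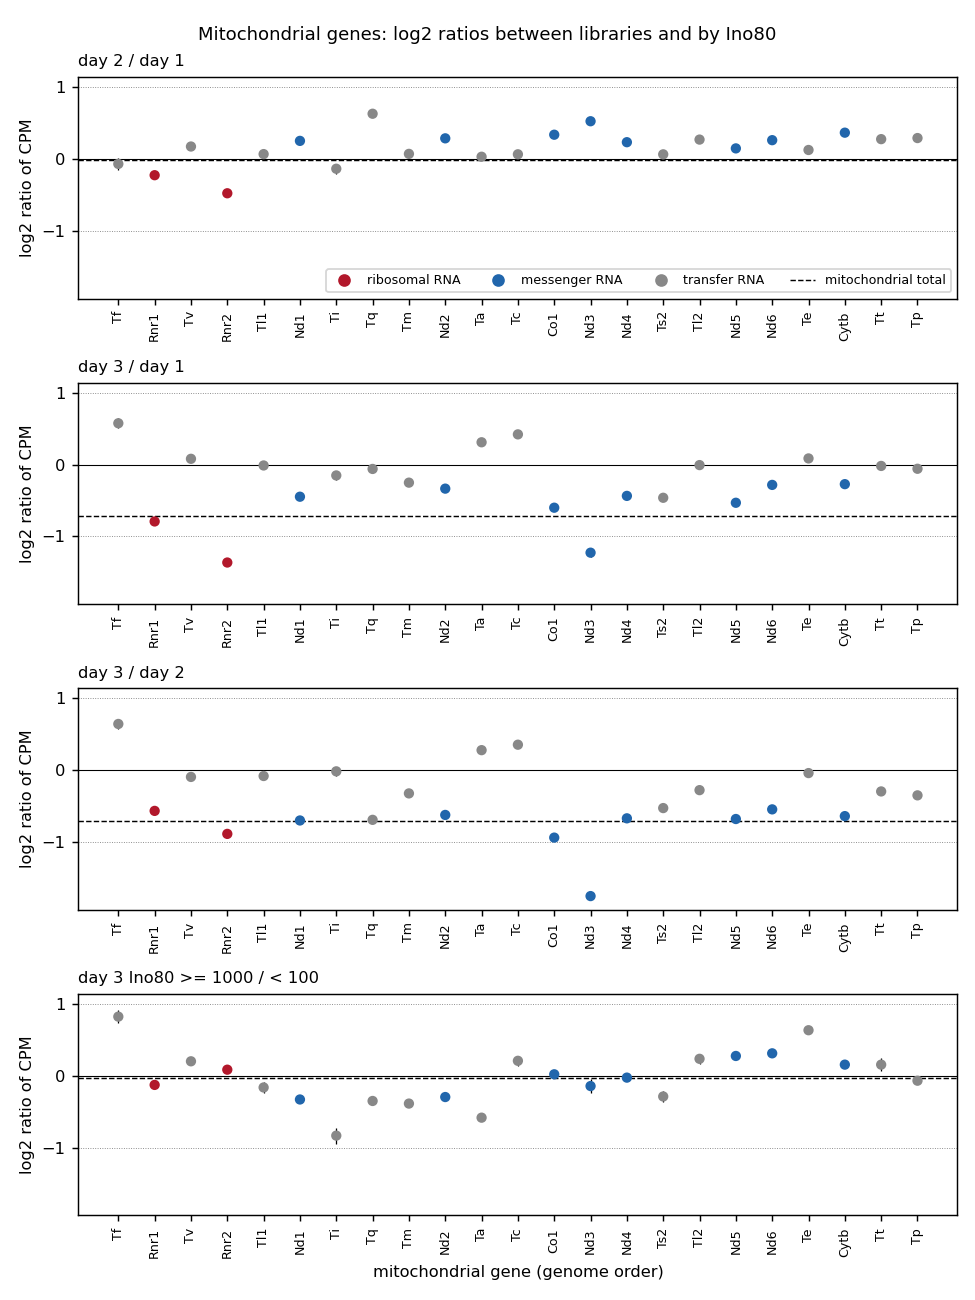
Log2 ratio of CPM of the 23 measured mitochondrial genes, in genome order, for day 2 against day 1, day 3 against day 1, day 3 against day 2 and day 3 wells with high against low Ino80; bars are 95% counting intervals, the dashed line is the mitochondrial total and dotted lines mark 2-fold. Ribosomal RNAs (red) lie below the messenger RNAs (blue) other than mt-Nd3 on days 2 and 3 against day 1. The lowest point of day 3 against day 2 is mt-Nd3.

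The ribosomal RNAs did not move together. The ratio of mt-Rnr2 to mt-Rnr1 counts was 2.60 on day 1, 2.18 on day 2 and 1.75 on day 3, so the large ribosomal RNA accounts for most of the lower ribosomal share. mt-Rnr1 held 13.5, 11.6 and 12.8% of the mitochondrial total, and mt-Rnr2 held 35.01, 25.3 and 22.4%. Within the 7 abundant messenger RNAs the largest gain in share was that of mt-Cytb, from 11.3% to 14.6 and 15.4%.

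The transfer RNA rows hold few reads for their number, and their levels span more than the messenger RNAs do. mt-Tq, the glutamine transfer RNA on the light strand, was the highest, and its sequence (chrM:3772-3842, minus strand) is shown for that reason.
mt-Tq: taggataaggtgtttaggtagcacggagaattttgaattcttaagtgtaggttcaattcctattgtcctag

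mt-Tq was at 2012, 3114 and 1930 CPM on days 1, 2 and 3, and its well quartiles were 1316 to 1935, 1946 to 3581 and 929 to 2097. Day 2 was highest, with a lower quartile just above the upper quartile of day 1. mt-Tp, the proline transfer RNA, followed at 487, 597 and 468 CPM, then mt-Ta at 235, 240 and 291 and mt-Te at 167, 182 and 177. mt-Tm was at 141, 149 and 119 CPM and mt-Tv, which lies between the ribosomal RNA genes, at 112, 126 and 118. The other 7 measured rows, mt-Tf, mt-Tl1, mt-Ti, mt-Tc, mt-Ts2, mt-Tl2 and mt-Tt, stayed between 11.2 and 35.02 CPM. As a share of the mitochondrial total, all 13 were higher on day 3 than on day 1, by 0.26 for mt-Ts2 to 1.30 for mt-Tf. mt-Ts2 was therefore the row nearest to the total. Transfer RNA genes are short and lie between longer genes, and the tables cannot tell the finished RNA from a precursor that crosses the row. No strand setting of the counting is given, so a gene cannot be told from RNA of the opposite strand, which touches mt-Nd6, mt-Tq, mt-Ta, mt-Tc, mt-Te and mt-Tp on the light strand; mt-Nd5 and mt-Nd6 overlap by 14 bases.

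The same shift of the mixture was present in wells of the other classes. In endothelial-like wells ribosomal RNA held 51.4, 39.8 and 38.4% of the mitochondrial counts on days 1, 2 and 3. Fibroblast-like wells stood at 51.9, 39.0 and 37.2%, and macrophage-like wells at 50.3, 38.1 and 37.2%. The mitochondrial share of all counts was 40.2, 38.6 and 21.5% in endothelial-like wells, 39.6, 36.3 and 20.9% in fibroblast-like wells and 38.4, 35.8 and 19.9% in macrophage-like wells. These values lie within 5 percentage points of the compartment on every day, beside cardiomyocyte marker sums that are nearly as high. The part that cardiomyocyte RNA in these wells plays in their mitochondrial values was not tested. In compartment wells with 25 to 35% mitochondrial counts (78, 100 and 97 wells), ribosomal RNA held 47.0, 38.0 and 34.96%, so the difference was also present at a like mitochondrial share.

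**Figure D3:**
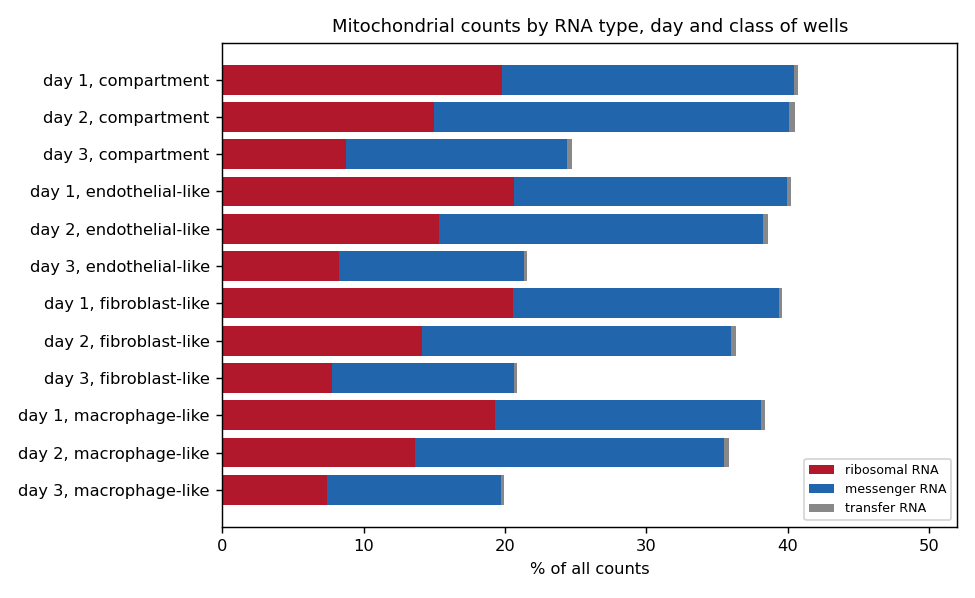
Mitochondrial counts as a percentage of all counts, split into ribosomal (red), messenger (blue) and transfer RNA (grey), for the compartment and 3 other classes of wells in each library. Red bars shorten from day 1 to day 3 in all 4 classes, while blue bars are longest on day 2.

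Wells of 1 library differed widely in mitochondrial share. On day 1 the median well had 40.5% (quartiles 36.6 to 44.5). On day 2 the median was 43.8%, with quartiles from 27.8 to 49.8%. Day 2 wells fell into a low and a high range: 150 wells had 20 to 30%, 55 had 30 to 40%, 193 had 40 to 50% and 118 had more than 50%. On day 3 the median was 22.1% (19.1 to 29.3), with 59 of 581 wells at or above 40%. The fibroblast-like and macrophage-like wells of day 2 had the same wide quartiles, 25.7 to 46.1% and 25.5 to 45.2%. On day 2 ribosomal RNA held 38.6% of the mitochondrial counts in wells of 20 to 30% and 36.7% in wells of 40 to 50%.

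**Figure D4:**
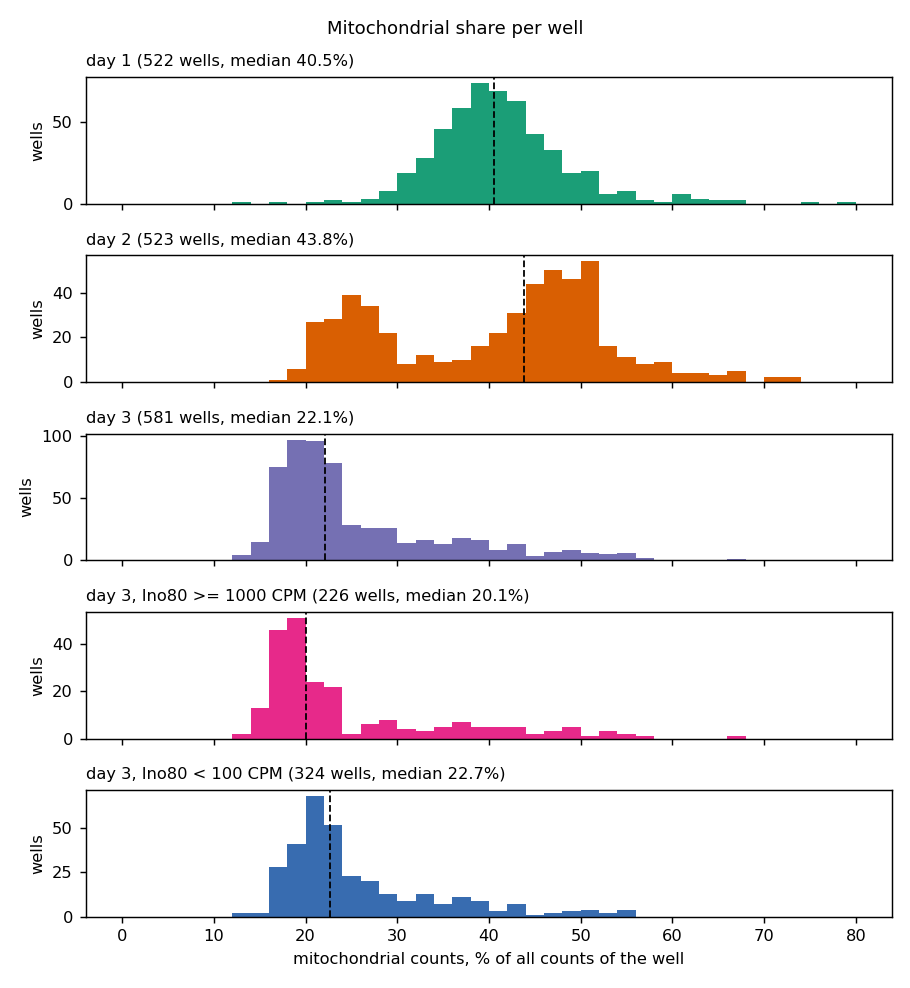
Number of compartment wells by mitochondrial share of their counts (2% bins, dashed line at the median) for each library and for day 3 wells with Ino80 at or above 1000 and under 100 CPM. Day 1 has 1 peak near 40%, day 2 has a low and a high peak, and day 3 has a peak near 20% with a tail to higher shares.

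Ino80 itself moved with the mitochondrial share on day 2. Its level was 2290 CPM of nuclear-encoded counts in the median well of the 20 to 30% band and 6770 in that of the 40 to 50% band. The Spearman correlation across wells was 0.71 over 523 wells on day 2, 0.36 over 522 wells on day 1 and −0.0097 over 581 wells on day 3. Within day 3 it was 0.28 in wells with Ino80 at or above 1000 CPM and 0.36 in wells under 100 CPM. The Ino80 level is taken per nuclear-encoded count, which also enters the mitochondrial share, so fewer nuclear-encoded counts raise both. The part of this in the bands and correlations was not tested. Wells of 1 library are not independent samples, so these values are a description. Total count per well had correlations of −0.11, 0.016 and −0.046 with the mitochondrial share on days 1 to 3.

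The 25% of wells with the highest and the 25% with the lowest mitochondrial share were compared within each library (131 wells each on days 1 and 2, 146 on day 3), called high-share and low-share wells here. The total differs by choice, at log2 0.62, 1.23 and 1.14 on days 1, 2 and 3, and says nothing beyond the split. The mixture did not enter the split separately. The split was made on the sum of these same members, so abundant members that vary most between wells can gain share through it. The differences in mixture below are thus a description. Ribosomal RNA held 48.0% of mitochondrial counts in the low-share and 46.5% in the high-share wells of day 1, 38.3 and 36.8% on day 2, and 35.7 and 33.2% on day 3. These gaps are smaller than those between day 1 and either later library, but on day 3 the gap is larger than that between days 2 and 3 (36.9 and 35.3%). With other cuts the sign of this difference was not stable on days 1 and 2: wells at or above 40% against wells under 30% gave 0.15 on day 1, where the low group held 17 wells, and wells above against below the library median gave 0.00031 on day 2, where the main split gave −0.046 and −0.060.

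Messenger RNAs were unevenly higher in high-share wells. mt-Cytb differed least of the 7 in every library, by 0.42, 0.88 and 0.54 on days 1, 2 and 3, below the total each time. mt-Nd6, the messenger RNA of the light strand, differed by 0.93, 1.62 and 1.62, and mt-Nd2 by 0.81, 1.56 and 1.69. On day 3 this took mt-Cytb from 18.6% of the mitochondrial counts in low-share wells to 12.2% in high-share wells, and mt-Nd2 from 8.60 to 12.6%. For mt-Cytb this gap within 1 library is wider than that between any of the libraries, at 11.3, 14.6 and 15.4% on days 1, 2 and 3. The share of mt-Cytb was not compared between libraries at a like mitochondrial share.

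Transfer RNA rows were the most uneven on day 3, where their share of the mitochondrial total was 0.885% in low-share and 1.99% in high-share wells. All 13 measured rows differed by more than the total there, from 1.40 for mt-Tt to 3.04 for mt-Te, the glutamate transfer RNA. mt-Te was at 64.7 and 531 CPM in the low-share and high-share wells of day 3, with well medians of 44.5 and 293 CPM. On days 1 and 2 it differed by 1.27 and 1.10. A few wells hold much of this row: the 10 wells with most counts gave 38.4% of the mt-Te counts of the high-share wells of day 3. Without the 10 such wells on each side, a check chosen after seeing the data, the difference was 2.91 on day 3, 1.01 on day 1 and 0.98 on day 2.

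**Figure D5:**
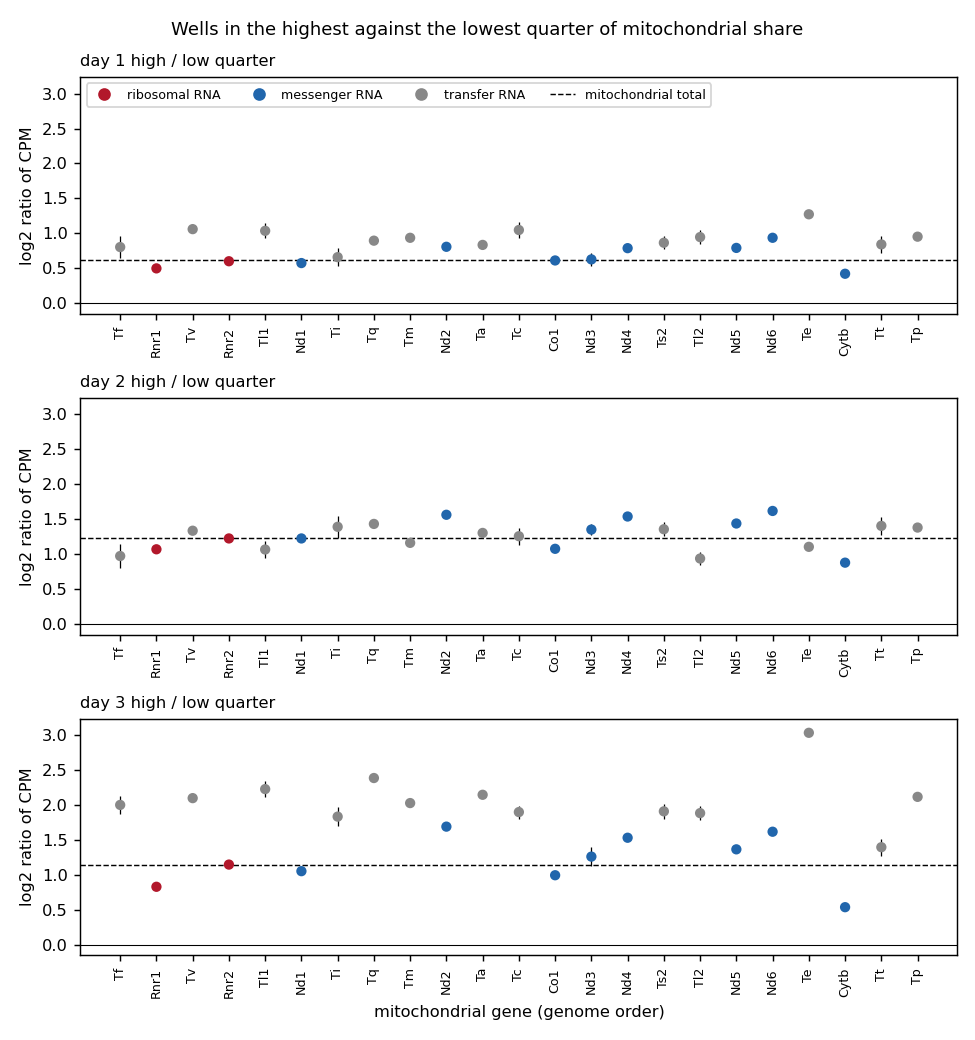
Log2 ratio of CPM of the 23 measured genes between the 25% of wells with the highest and the 25% with the lowest mitochondrial share, for each library, with 95% counting intervals and the mitochondrial total as a dashed line. mt-Cytb lies below the line in every library, and on day 3 the transfer RNA rows (grey) lie above it, with mt-Te highest at 3.04.

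Ventricular marker sums moved with the split: they were 111103 and 133061 CPM of nuclear-encoded counts in the low-share and high-share wells of day 1, 108322 and 135718 on day 2, and 103860 and 141140 on day 3. Some other marker sums moved by more. On day 1 the 9 atrial markers were at 12100 CPM in low-share and 3507 in high-share wells, and the 8 T and NK lymphocyte markers at 183 and 14.96. On day 2 the 6 neutrophil markers were at 470 and 134 CPM, and the 6 erythroid markers at 201 and 398. On day 3 the 11 fibroblast markers were at 319 and 129 CPM and the erythroid markers at 143 and 443. Their part in the differences above was not tested.

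Day 3 wells were split by Ino80 at 1000 CPM or more (226 wells) and under 100 CPM (324 wells), with 31 wells in between. The cuts are on nuclear-encoded counts, and the classes cannot be told apart from the genotype labels or from other sources of the wells. The mitochondrial share was 24.3% in Ino80-high and 24.7% in Ino80-low wells (log2 −0.025), ribosomal RNA differed by 0.011 and messenger RNA by −0.041. Ribosomal RNA held 36.0 and 35.1% of the total. None of the 23 measured members was 2-fold apart, and 11 were higher, whereas 23.9% of the 5171 genes measured passed 2-fold upward and 11.6% downward in Ino80-high wells. Median counts per well were 304808 and 457401, and the ventricular marker sums 82681 and 144964 CPM. Marker sums of other cell types also differed between Ino80-high and Ino80-low wells: macrophage 255 and 51.8 CPM, atrial 3215 and 1459, neutrophil 113 and 41.4, fibroblast 346 and 180, and erythroid 200 and 498. Their part in the member differences was not tested.

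Within the steady total, single members went both ways. mt-Nd1 was at 26387 CPM in Ino80-high and 33126 in Ino80-low wells (log2 −0.33, −0.330 to −0.326), with well quartiles of 19988 to 32058 and 27088 to 39982. mt-Nd2 was likewise lower, at log2 −0.29. mt-Nd6 was at 6834 and 5495 CPM (log2 0.31, 0.310 to 0.320), and mt-Nd5 was higher by 0.28 and mt-Cytb by 0.16. The well quartiles of each of these genes overlap between the classes. mt-Co1 and mt-Nd4 were at 0.023 and −0.024, mt-Rnr1 at −0.13 and mt-Rnr2 at 0.087. Some rows that lie in one run on the genome had the same sign: mt-Nd1, mt-Ti, mt-Tq, mt-Tm, mt-Nd2 and mt-Ta were all lower, with log2 values of −0.29 and below, and mt-Tw within that run had no count.

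The other classes of day 3 wells matched the compartment for some members and not for others. The mitochondrial total by Ino80 was at −0.043 in endothelial-like, −0.25 in fibroblast-like (18.9 against 22.5% of all counts) and 0.0057 in macrophage-like wells, against −0.025 in the compartment. The ribosomal share of that total was at 0.036 in the compartment, 0.069 in endothelial-like, 0.11 in fibroblast-like and −0.027 in macrophage-like wells. As a share of the mitochondrial total, mt-Nd1 differed by −0.30 in the compartment, −0.36 in endothelial-like, −0.40 in fibroblast-like and −0.32 in macrophage-like wells. mt-Nd6 differed by 0.34, 0.34, 0.23 and 0.46 in the same order, and mt-Rnr2 by 0.11, 0.14, 0.19 and 0.092. mt-Tq differed by −0.32, −0.60, −0.41 and 0.11, so its sign was not shared by the macrophage-like wells. These classes come from the same library and share cardiomyocyte RNA, so they are not separate samples. Among transfer RNA rows the largest differences in CPM were mt-Tf at 0.83 and mt-Ti at −0.83, rows of under 30 CPM, and mt-Te at 0.64, where 1 well gave 17.9% of the counts of Ino80-high wells. The well medians of mt-Te went the other way, at 70.8 CPM in Ino80-high and 76.8 in Ino80-low wells.

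Nuclear genes that make, cut and translate mitochondrial RNA were described on nuclear-encoded counts, as 4 lists: transcription and maintenance of the mitochondrial genome, RNA processing and stability, the mitochondrial ribosome, and nuclear-encoded oxidative phosphorylation. Of 16, 27, 75 and 89 measured genes, 5, 9, 10 and 10 were at least 2-fold lower and 1, 1, 2 and 0 at least 2-fold higher in Ino80-high wells, against 13.4% of all 7870 nuclear genes measured lower and 25.9% higher. The lower genes made up 31.2 and 33.3% of the transcription and processing lists, and 13.3 and 11.2% of the ribosome and oxidative phosphorylation lists, which is at or below the share of all genes. The list medians were −0.50, −0.30, −0.39 and −0.32, against 0.27 for all genes. At a minimum of 20 CPM they were −0.71, −0.16, −0.39 and −0.31. Per count of all genes they were −0.52, −0.51, −0.38 and −0.31. Ppargc1a, a coactivator of mitochondrial biogenesis, was at 17.7 CPM in Ino80-high and 111 in Ino80-low wells (log2 −2.64), and its relative Ppargc1b was at 7.78 and 46.2 (−2.57). The ribosomal protein genes Mrpl34 and Mrpl18 were at −2.56 and −1.84, Ptcd2, an RNA-binding protein of mitochondria, at −2.49, and Ndufaf3, an assembly factor of complex I, at −2.48. Tfam, which packages the mitochondrial genome and starts its transcription, was at 11.6 and 31.9 CPM (−1.47), and Lrpprc, which stabilises mitochondrial messenger RNAs, at 60.5 and 159 CPM (−1.39). Polrmt, the mitochondrial RNA polymerase, was at 7.94 and 11.7 CPM (−0.55). The mitochondrial total stood at −0.033 per nuclear-encoded count in the same comparison, and at −0.025 in CPM over all genes.

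Between libraries the largest share of a list at least 2-fold higher was 15.4%, for processing and stability on day 2 against day 1. The median of that list was 0.38, against 0.15 for all genes. On day 2 against day 1, 0, 4, 1 and 0 genes were at least 2-fold higher and 0, 1, 0 and 0 lower, among 18, 26, 75 and 90 measured. Of 8282 nuclear genes 7.09% passed 2-fold upward and 3.19% downward. Elac2, which cuts the 3′ ends of mitochondrial transfer RNAs, was at 40.3 CPM on day 2 and 16.5 on day 1 (log2 1.29), Mrps22, a mitochondrial ribosomal protein, at 1.01 and Tbrg4, an RNA-binding protein of mitochondria, at 1.00. Polrmt stood at 9.17 and 14.4 CPM (−0.65), Tfam at −0.22 and Lrpprc at 0.11. On day 3 against day 1, 1, 2, 0 and 1 genes were at least 2-fold higher and none lower, among 17, 26, 75 and 90 measured, beside 5.63% and 8.37% of 8042 genes. They included Mrm3, a methyltransferase of mitochondrial ribosomal RNA, at 1.40, Ppargc1b at 1.36 and Cox6a1, a subunit of complex IV, at 1.34, while Tfam was at 0.46, Lrpprc at 0.32 and Polrmt at −0.24. On day 3 against day 2, 1, 0, 0 and 1 were at least 2-fold higher and 1, 1, 0 and 0 lower, beside 3.77% and 12.9% of 8135 genes. Ppargc1a was at 1.60 and Cox6a1 at 1.07 there, with Tfam at 0.68, Polrmt at 0.41 and Lrpprc at 0.22. The median of the oxidative phosphorylation list was 0.08 on day 3 against day 1 and 0.20 against day 2, where all genes had −0.12 and −0.28, and per count of all genes these list medians were 0.42 and 0.54. Per count of all genes the transcription list's median turned from −0.09 to 0.24 on day 3 against day 1 and from −0.07 to 0.27 against day 2, and that of the processing list from −0.18 to 0.12 against day 2. At a minimum of 20 CPM the transcription list's median on day 3 against day 1 was 0.42.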

How the data were processed

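The deposited tables hold counts of reads per gene and well, made by the authors with cutadapt, STAR and featureCounts on mm10, per the submitters' processing notes; tool versions, strandedness, gene models and the handling of multiply matching reads: not given in the sources used here. The values are treated as reads without molecular identifiers. Of 55502 features, 55401 are mouse genes, and 55141 of these took a symbol from GENCODE M21 on mm10. Spike-in counts (247 to 307 for ERCC) were too few for a scale.

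Wells with at least 1000 counts and 300 genes were kept (18 left out) and clustered within each library without chromosome M genes in scanpy 1.11.5 with igraph 0.11.9: 10000 counts per well, log transform, 2000 variable genes, 30 components, 15 neighbours, Leiden resolution 1, seed 0. A cluster took a cell type name with at least 4 of its markers raised 2-fold and found in 25% of wells, and 1 of them among its 10 leading genes. These settings were chosen after seeing the data. Doublets were not called. Atrial-like wells (20 on day 1, 33 on day 3) stayed in the compartment.

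Counts were summed per group of wells. Log2 ratios have exact 95% intervals from the binomial split, shares exact Clopper-Pearson intervals, and a count of 0 was set to 3 counts for ratios. Genes 2-fold apart were counted at a mean of 10 CPM, and list genes at 5 CPM. Named list genes are those 2-fold apart at a mean of 20 CPM (at most 6 per comparison), with Tfam, Polrmt and Lrpprc always given. The fold counts and intervals were tested on simulated sums with counting error only, so the spread between wells was not part of that test. Copies were found with BLAST+ 2.17.0 against GENCODE transcripts. The members and lists were chosen with earlier results of these data known. Every well was in the barcode list of its library, and the lists were not used to select wells.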

Additional observations from a re-analysis of the deposited data

Results flagged for a closer look

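The share of mt-Tq, the glutamine transfer RNA, in the mitochondrial total differed in opposite directions by Ino80 among day 3 wells: its log2 ratio was −0.60 in endothelial-like wells with Ino80 at or above 1000 CPM against those under 100 CPM, and 0.11 in macrophage-like wells. The difference between the classes was not tested, since all wells come from 1 library, and the macrophage-like groups held 33 and 29 wells. The same comparison of signs was made for rows with a mean of at least 1000 CPM, over classes for day 2 against day 1 and by Ino80, and over libraries for the 25% of wells with the highest against the 25% with the lowest mitochondrial share. It found no other row with differences of at least 0.1 in size in both directions.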

How the results depend on the processing

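Values are log2 ratios in the order day 2 over day 1, day 3 over day 1, day 3 over day 2 and day 3 Ino80-high over Ino80-low. The mitochondrial total was −0.035, −0.80, −0.77 and −0.086 in all kept wells, −0.016, −0.71, −0.69 and −0.0084 after clustering with the mitochondrial genes, −0.025, −0.68, −0.66 and −0.059 as a mean of per-well values, −0.027, −0.69, −0.66 and −0.065 with wells thinned to 30000 counts, and −0.014, −1.07, −1.05 and −0.033 per nuclear-encoded count. The ribosomal share of the total was −0.40, −0.46, −0.057 and 0.067 in all kept wells, −0.38, −0.46, −0.082 and 0.063 as a mean of wells, −0.38, −0.48, −0.091 and 0.063 when thinned, and −0.31, −0.43, −0.12 and 0.0085 in wells with 25 to 35% mitochondrial counts. Clustering with the mitochondrial genes gave −0.40 for day 2 over day 1 and 0.039 by Ino80. Ino80 classes on the all-gene scale gave −0.038 for the total and 0.042 for the ribosomal share. The sign changed in 0 of 25 alternatives for the total and 0 of 25 for the ribosomal share.

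For high against low wells the ribosomal share differed on days 1, 2 and 3 by −0.074, −0.064 and −0.11 after clustering with the mitochondrial genes, −0.024, −0.035 and −0.089 as a mean of wells, −0.038, −0.039 and −0.11 when thinned, −0.014, 0.00031 and −0.075 between wells above and below the library median, and 0.15, −0.067 and −0.20 at fixed cuts. All kept wells gave −0.022 on day 1 and −0.085 on day 3, and wells of 5000 counts and 1000 genes gave −0.0499 on day 1. The sign changed in 2 of 21 alternatives, and the cause was not tested.

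Members 2-fold apart numbered 0, 2, 1 and 0. With no minimum CPM they were 3, 5, 4 and 3, where rows of few counts enter. At a minimum of 50 CPM they were 1 for day 3 over day 1 and 0 for day 3 over day 2, where mt-Nd3 falls under the minimum, and per nuclear-encoded count 7 for day 3 over day 2. Nuclear list genes 2-fold apart numbered 6, 4, 4 and 38. Per count of all genes they were 8 and 7 for day 3 over day 1 and over day 2, and at a minimum of 20 CPM 3 for day 2 over day 1 and 2 for day 3 over day 2. No paired analysis was possible because each day is 1 library. The rows under 1 CPM hold few or no counts, and intervals cover counting error only.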
